A study of Rattus norvegicus with 39 samples.

Results

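Livers of rats given DMN were set against livers of rats given DNP. Both compounds were given at 15 mg/kg in water by mouth, and the liver was taken 48 h later, so that the groups shared dose, vehicle, route and time and differed in the compound. The 10 arrays were chosen by their labels alone out of 39 in the series and hold 5 DMN and 5 DNP livers, labelled as biological replicates. Livers of 9 untreated rats, which received no treatment and so no vehicle, are given beside them to show the level of each gene without treatment. The rats were 5 to 6 weeks old, and total RNA of the left lateral lobe was hybridised to Affymetrix rat expression arrays. Strain and sex are not given in the sources used here.

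The labels give the compounds by abbreviation, which are read here as dimethylnitrosamine and dinitrophenol. Dimethylnitrosamine is oxidised in hepatocytes around the central vein, mainly by the cytochrome P450 Cyp2e1, to a reactive product that methylates DNA, and it is known for necrosis and bleeding around the central veins. A methylated guanine among the lesions is reversed by the repair protein Mgmt, and unrepaired damage activates the transcription factor p53. Dinitrophenol acts elsewhere, by carrying protons across the inner mitochondrial membrane, so that respiration runs without making ATP.

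Values are log2 intensities as deposited or differences between their group means, and values in sequence run from array 1 to array 5 of a group. A gene was called when limma gave an adjusted p under 0.05 over the 14217 genes tested. The livers were measured as bulk tissue, so fewer cells of a type and less RNA per cell cannot be told apart. The hepatocyte marker albumin (Alb, named after its values were seen) was at 14.44, 14.44, 14.41, 14.47 and 14.32 in DMN livers and at 14.49, 14.46, 14.43, 14.47 and 14.43 in DNP livers, close to the highest intensity in the whole table, so that its probe set shows presence and not whether the groups differ. Of 18 hepatocyte function genes, Apoa2, the gene of a high-density lipoprotein protein, was the only one called, at 12.11, 12.98, 12.32, 11.66 and 12.43 in DMN livers against 13.32, 13.50, 13.08, 13.24 and 13.26 in DNP livers (-0.98 ± 0.20 SE, adjusted p = 0.00171).

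The array labelled DMN 2 stood apart from the other 4 DMN arrays in the called genes, and counts over all genes are given with and without it. It lay on the DMN side of the midpoint in 56.5% of called genes, against 87.2% to 96.5% for the other DMN arrays. Over whole arrays DMN 5 stood further apart. Its correlation with DMN 1, 3 and 4 was 0.924, 0.912 and 0.914, against 0.953, 0.934 and 0.960 for DMN 2. DMN 3 and DNP 1 had little signal at the 5′ end of the GAPDH control transcript, with log2 ratios of 5′ over 3′ probe sets of -6.07 and -2.75, against -0.553 to -0.117 in the other DMN arrays and -0.651 to -0.132 in the other DNP arrays. DNP 1 was also low at the 3′ end of that transcript, at 9.99 against 12.68 to 12.85 in the other DNP arrays. At the actin control the log2 ratio of 5′ over 3′ was -2.80 in DMN 3 and -2.36 in DMN 5, against -1.18 to -0.54 in the other DMN arrays and -1.33 to -0.44 in DNP arrays, and limma's array weights gave DMN 5 the lowest weight of the 10, 0.213, and DNP 1 the next, 0.324. The part of these signs in the results was not tested beyond fits that leave out or adjust for such arrays. Without DMN 5, 948 genes were called, 477 higher and 471 lower, and 29 of the 132 called genes named here lost their call. Mean intensity ran from 350 to 358 in DMN arrays and from 352 to 359 in DNP arrays, whereas the median was 84.2, 88.1, 80.7, 83.2 and 107.1 in DMN arrays against 100.5, 106.6, 94.8, 92.2 and 98.7 in DNP arrays. All DMN arrays but DMN 5 thus had a median below every DNP array.

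The DMN and DNP livers differed in 980 genes, 6.89% of those tested. Of these, 548 were higher in DMN livers, 3.85% of the genes tested, and 432 were lower, 3.04%. The counts of gene lists given below are to be read beside these shares, and were not tested against them. At least 2-fold differences made up 398 of the 980 genes, 256 higher and 142 lower. In 668 genes, or 4.7%, the 5 DMN arrays and the 5 DNP arrays did not overlap, 334 in each direction, and 460 of these were called. Without DMN 2 the arrays did not overlap in 1365 genes, or 9.6%, with 4 arrays in place of 5 making an overlap less likely, and the fit called 1390 genes, 9.78%, of which 754 were higher in DMN livers, 5.3%, and 636 lower, 4.47%. They included 916 of the 980, none with the opposite sign. The balance of directions moved with the scaling. As deposited, 55.9% of the calls were higher in DMN livers, and after subtraction of each array's median the share was 67.2%, from 708 higher and 346 lower calls. A fit of these 10 arrays without the rest of the series called 266 genes, 183 higher and 83 lower, and 638 once DMN 2 was left out. The fit over all 39 arrays shares 1 estimate of the spread of a gene among all groups. The median SD of a gene was 0.392 in DMN, 0.32 in DNP and 0.34 in untreated arrays. The part of this in the counts was not tested. In the fit over the series without DMN 3 and DNP 1, an alternative added after the data had been examined, the count was 533, 348 higher and 185 lower. Of the 132 called genes named here, the fit of 10 arrays lost the call of 65, and the fit without DMN 3 and DNP 1 lost that of 40.

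Set against the untreated livers in the same fit, DMN livers differed in 1478 genes and DNP livers in none by limma. The DNP comparison had 199 genes, or 1.4%, at an unadjusted p under 0.05, and its lowest adjusted p was 1.0. That share is below the 1 in 20 that unchanged genes give on average when the spread is estimated correctly. The spread was taken over all 7 groups of the series, so the lack of calls does not show that DNP left the liver unchanged. Akr1b7, for example, differed by -2.09 between DNP and untreated livers without being called. Both of these comparisons share the untreated arrays. Of the 980 genes called between DMN and DNP, the untreated mean lay nearer to the DNP mean in 962, or 98.2%, and between the DMN and DNP means in 686.

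Among called genes whose DMN and DNP arrays did not overlap, the largest rises in DMN livers were those of an aldo-keto reductase gene, a laminin gene and a protease gene; Lcn2, whose arrays overlapped, had a larger difference (4.69). Akr1b7, which reduces aldehydes, was at 9.996, 6.67, 11.53, 11.85 and 8.58 in DMN livers, against 6.45, 5.25, 4.77, 4.55 and 4.96 in DNP livers, and rose 23.1-fold (4.53 ± 0.96 SE, adjusted p = 0.00261, and 5.30 without DMN 2). Every DMN value lay above every DNP value, but DMN 2 only just, and the untreated livers were spread between the groups, at 7.29 ± 1.74 (SD, n = 9). Set against untreated livers, Akr1b7 differed by 2.44 in DMN livers, which was not called (adjusted p = 0.0601), and by -2.09 in DNP livers. The fold between DMN and DNP livers thus includes a low level in DNP livers. Adam8, a surface metalloprotease of white blood cells, was at 9.92, 8.51, 10.23, 9.95 and 9.44 in DMN livers and at 6.66, 6.23, 5.38, 5.96 and 5.79 in DNP livers, or 12.2-fold higher (3.61 ± 0.52 SE, adjusted p = 3.86e-05). Here DMN 2 was the lowest DMN array but well clear of the DNP arrays. Lama5, which encodes a chain of basement membrane laminins, rose 14.5-fold (3.86 ± 0.47 SE, adjusted p = 1.07e-05), with 9.20, 7.49, 9.46, 9.49 and 9.07 in DMN livers against 5.12, 5.28, 4.64, 4.75 and 5.63 in DNP livers. For these genes the brightest probe set stands for the gene. Of the 3 probe sets of Lama5, 2 were higher in DMN livers and the third differed by -0.41, and the second probe set of Adam8 differed by -0.51.

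Further rises of this size joined stress, growth and lipid genes. Cryab, a small chaperone, was at 10.83, 7.65, 11.21, 11.10 and 10.82 in DMN livers and 7.45, 6.78, 6.57, 6.37 and 7.05 in DNP livers (11.1-fold, a difference of 3.48, adjusted p = 1.42e-05, and 4.14 without DMN 2). Mybl1, a transcription factor of the MYB family, was near background in DNP livers and rose at least 6.36-fold, with 7.57, 7.16, 8.41, 8.04 and 5.69 in DMN livers against 4.40, 4.04, 4.19, 3.73 and 3.93 in DNP livers (adjusted p = 5.99e-05). DMN 2 was the lowest for Cryab, whereas DMN 5 was the lowest for Mybl1. Fabp4, a fatty acid carrier of fat cells and macrophages, rose 9.29-fold, Btg3, an antiproliferative gene, 8.03-fold, and the calcium-binding protein gene S100a11 7.87-fold (adjusted p = 0.000184, 5.99e-05 and 1.42e-05). Rnd1, a small GTPase near background in DNP livers, rose at least 6.94-fold, and Mcm6, a subunit of the helicase that opens DNA for replication, 6.98-fold (adjusted p = 0.000466 and 0.000466).

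Among called genes whose DMN and DNP arrays did not overlap, 8 of the 10 largest falls in DMN livers were in genes of enzymes and carriers, and the others were Siglec5 and the endothelial receptor gene Stab2. Stac3, whose arrays overlapped, had a larger difference than 9 of these 10 (-3.96). Akr1c1, a hydroxysteroid dehydrogenase of the aldo-keto reductase family, was at 5.52, 9.86, 6.43, 6.39 and 4.66 in DMN livers, against 10.69, 10.16, 11.13, 11.15 and 10.13 in DNP livers, and fell 16.9-fold (-4.08 ± 0.70 SE, adjusted p = 0.000309). Fmo1, a flavin-containing monooxygenase, was at 7.57, 10.74, 8.03, 7.82 and 6.25 in DMN livers and at 11.03, 10.96, 10.97, 11.59 and 11.37 in DNP livers (8.58-fold lower, adjusted p = 0.000348). In both genes DMN 2 sat just below the DNP arrays, and the other 4 DMN arrays lay far below both. Without DMN 2 their differences were -4.90 and -3.77, against -4.08 and -3.10 with it. Oat, which breaks down ornithine, was at 9.29, 10.35, 9.97, 9.74 and 10.13 in DMN livers and at 11.998, 12.77, 12.44, 12.39 and 11.92 in DNP livers (5.31-fold lower, -2.41 ± 0.34 SE, adjusted p = 2.93e-05), and there DMN 2 was close to the rest of its group. The sulfate carrier gene Slc13a4 fell 4.81-fold, the dicarboxylate carrier gene Slc13a3 4.57-fold and the sulfotransferase gene Sult1c2a 3.91-fold (adjusted p = 2.93e-05, 0.00141 and 0.0013). Inmt, a methyltransferase for indole amines, fell 3.89-fold (adjusted p = 0.0143), a call lost without DMN 3 and DNP 1 (adjusted p = 0.0601). Siglec5, a sialic acid-binding lectin of immune cells, was near background in DMN livers, at 3.61, 4.83, 4.26, 3.89 and 3.88, against 7.67, 6.50, 7.37, 6.75 and 5.80 in DNP livers, and was at least 4.33-fold lower (adjusted p = 0.00118).

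**Figure D1:**
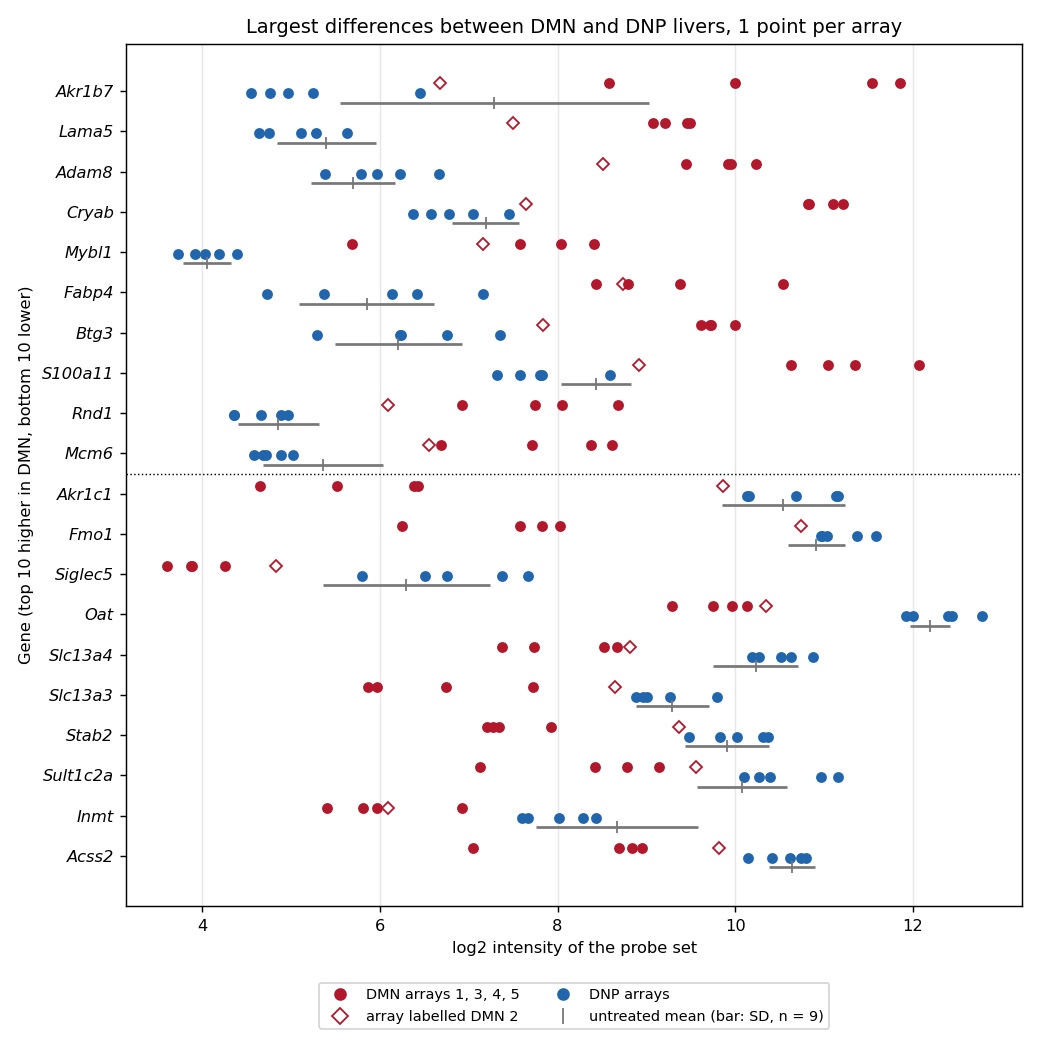
Log2 intensity on each DMN and DNP array of 10 called genes in each direction, chosen for the size of their difference among genes without overlap between the groups; the grey bars are the untreated mean and SD (n = 9). The open diamond is the array labelled DMN 2, which lies with the other DMN arrays for Mybl1, Fabp4, Oat, Slc13a4 and Inmt and next to the DNP arrays for Akr1c1, Fmo1 and Slc13a3.

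Genes that answer DNA damage were higher in DMN livers. Of 21 p53 targets measured, 9 rose and none fell, and the DMN and DNP arrays did not overlap in 8 of these, all but Gadd45a. Over all genes the arrays did not overlap in 4.7%, and among the 980 called genes in 460. Calls and overlap rest on the same values, so the one adds no separate support to the other. The median of the list was 0.61, against -0.10 over all genes. Without DMN 2, 11 rose and 1 fell, with a median of 0.81. Cdkn1a, which halts the cell cycle, was at 11.52, 10.30, 11.95, 11.53 and 11.59 in DMN livers and at 9.87, 10.12, 8.46, 8.61 and 9.20 in DNP livers (4.36-fold higher, 2.12 ± 0.44 SE, adjusted p = 0.00193). Its untreated level, 9.89 ± 0.48, lay between those of the treated groups. Mdm2, the ubiquitin ligase that degrades p53, was at 9.57, 8.51, 10.32, 10.53 and 9.18 in DMN livers and at 8.20, 7.91, 8.02, 7.78 and 7.83 in DNP livers (3.19-fold, 1.67 ± 0.29 SE, adjusted p = 0.000348). Phlda3, an inhibitor of Akt signalling, was at 11.56, 10.79, 11.19, 11.35 and 10.69 in DMN livers against 9.25, 9.56, 9.68, 9.44 and 8.89 in DNP livers (3.37-fold, adjusted p = 3.86e-05). DMN 2 was the lowest DMN array for Cdkn1a and Mdm2 and within the DMN range for Phlda3. The cyclin G gene Ccng1 rose 3.63-fold and the nuclease gene Aen 2.16-fold (adjusted p = 0.00184 and 0.00392). Fas, a death receptor, and Apaf1, the scaffold of the apoptosome, rose 2.6-fold and 2.04-fold (adjusted p = 0.00314 and 0.00309), but each has a probe set of the opposite sign, and with the mean of all probe sets both calls were lost (adjusted p = 0.123 and 0.108). Gadd45a and Ccnd1 were at adjusted p = 0.0443 and 0.0322. Gadd45a lost its call without DMN 1, 4 or 5 or DNP 1, 2, 4 or 5 (adjusted p from 0.0544 to 0.152), and Ccnd1 without DMN 1 or 3 or DNP 2, 3, 4 or 5 (adjusted p from 0.0512 to 0.102). Bbc3, a pro-apoptotic target shown though it was not called, was at 8.60, 9.12, 9.18, 8.55 and 9.24 in DMN livers and 9.35, 8.85, 8.73, 8.51 and 8.31 in DNP livers (adjusted p = 0.737).

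Of 28 DNA repair and damage signalling genes 5 rose and none fell (median 0.08), with Mgmt first. Mgmt, which takes the methyl group off guanine, was at 10.13, 9.94, 10.52, 10.60 and 10.69 in DMN livers and at 8.66, 8.58, 8.08, 8.17 and 8.62 in DNP livers. All 5 DMN arrays, DMN 2 included, lay well above the highest DNP array, a 3.88-fold rise (1.95 ± 0.26 SE, adjusted p = 1.42e-05), and the untreated livers, at 8.67 ± 0.19, were close to the DNP group. Rad18, a ubiquitin ligase that starts synthesis past damaged bases, was near background in DNP livers and rose at least 1.86-fold (adjusted p = 0.000309), with 5.64, 5.005, 6.23, 5.58 and 5.56 in DMN livers against 4.47, 3.86, 3.82, 4.27 and 3.93 in DNP livers. The damage kinase gene Atr rose 2.16-fold and the crosslink repair gene Fancd2 2.37-fold (adjusted p = 0.00826 and 0.0124); Fancd2 lost its call without DMN 3 (adjusted p = 0.0539). Rpa2, a single-strand binding protein named after its values were seen, rose 1.66-fold (adjusted p = 0.019), a call lost without DMN 1 or DNP 2 or 3 (adjusted p from 0.0501 to 0.0702). Among 25 apoptosis and cell death regulators 5 rose and none fell (median 0.19): besides Fas and Apaf1 these were the necroptosis kinase gene Ripk3 (1.93-fold, adjusted p = 0.00399), the cytokine receptor gene Tnfrsf12a and, named after its values were seen, the inflammatory protease gene Casp1 (adjusted p = 0.0437 and 0.0345). The calls of these last genes were lost without DMN 1, 3 or 5 or DNP 3, 4 or 5 (adjusted p from 0.0875 to 0.12) and without DMN 3 or DNP 2, 3, 4 or 5 (adjusted p from 0.0573 to 0.132), in that order.

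**Figure D2:**
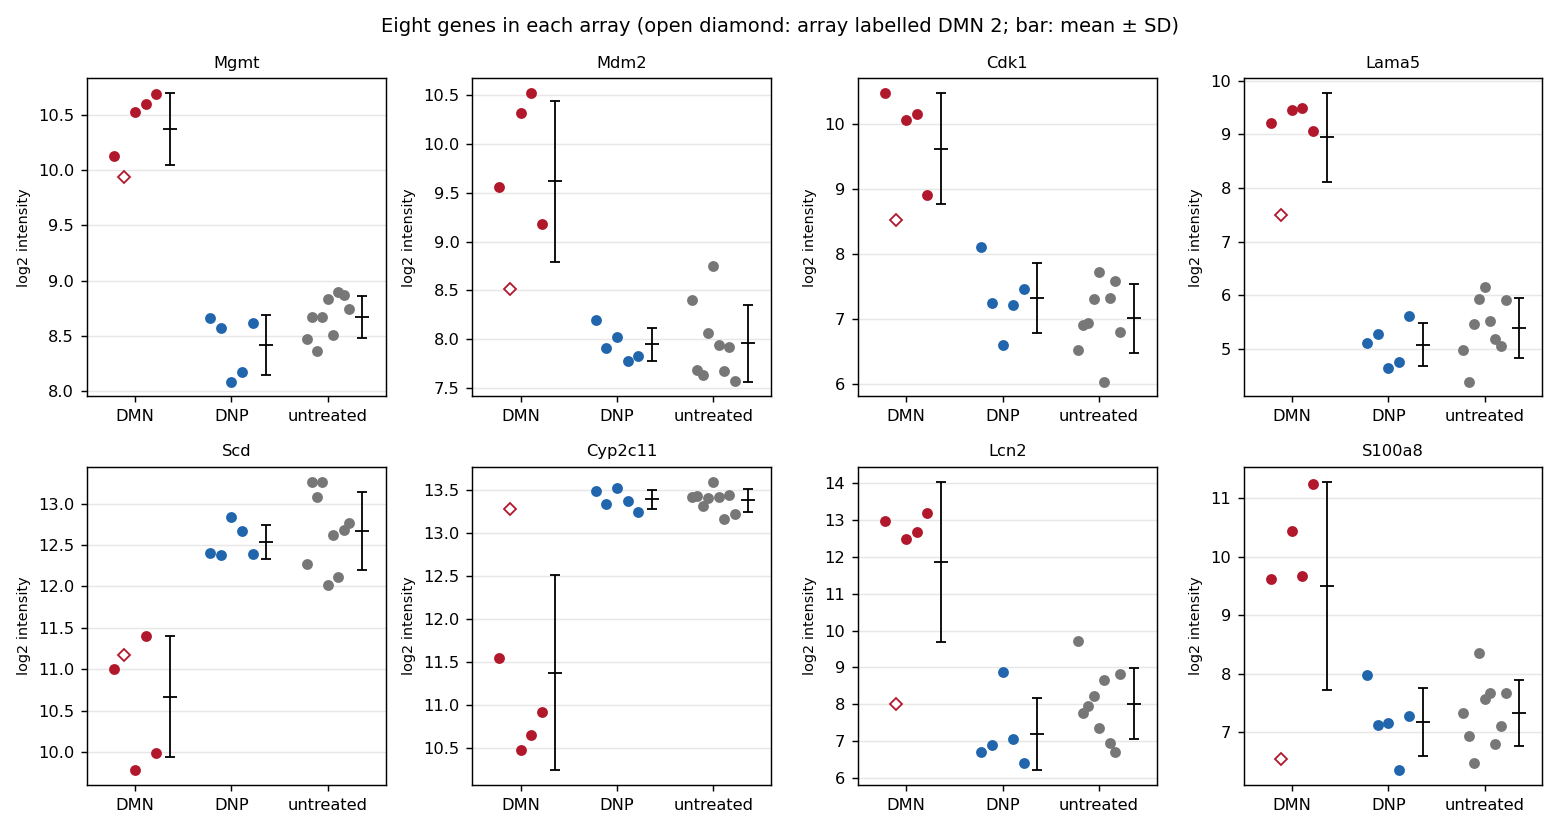
Log2 intensity of 8 genes on each DMN, DNP and untreated array, with the group mean ± SD beside the points; the open diamond is the array labelled DMN 2. Mgmt and Lama5 separate all 5 DMN arrays from the DNP and untreated arrays, whereas Cyp2c11, Lcn2 and S100a8 separate 4 DMN arrays and leave DMN 2 among the DNP and untreated values.

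Cell division genes were higher in DMN livers. The mean level of the replication list was above every DNP array in all 5 DMN arrays, and that of the mitosis list in 4. Replication and mitosis are run by different factors: E2F switches on the replication genes, while a complex that binds the CHR element, TTTGAA, together with NF-Y at CCAAT boxes switches on the mitosis genes later in the cycle. The sequences are the 250 bases before the start of Cdk1, Top2a, Birc5 and Ccnb1 in RefSeq on GRCr8, 5′ to 3′ on the strand of the gene, with capitals marking CCAAT or TTTGAA on either strand (ATTGG and TTCAAA on the reverse one).
Cdk1, chr20:19265043-19265292, plus strand: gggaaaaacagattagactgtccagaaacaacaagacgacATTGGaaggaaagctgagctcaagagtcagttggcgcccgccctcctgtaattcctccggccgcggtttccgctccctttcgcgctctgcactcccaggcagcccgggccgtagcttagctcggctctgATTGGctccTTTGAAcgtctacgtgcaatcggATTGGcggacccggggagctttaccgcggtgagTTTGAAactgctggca
Top2a, chr10:84473094-84473343, minus strand: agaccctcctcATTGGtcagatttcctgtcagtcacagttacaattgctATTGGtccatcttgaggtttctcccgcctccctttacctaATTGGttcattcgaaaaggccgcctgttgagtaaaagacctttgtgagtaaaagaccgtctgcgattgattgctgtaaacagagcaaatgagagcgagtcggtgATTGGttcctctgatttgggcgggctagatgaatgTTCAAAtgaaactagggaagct
Birc5, chr10:103571896-103572145, plus strand: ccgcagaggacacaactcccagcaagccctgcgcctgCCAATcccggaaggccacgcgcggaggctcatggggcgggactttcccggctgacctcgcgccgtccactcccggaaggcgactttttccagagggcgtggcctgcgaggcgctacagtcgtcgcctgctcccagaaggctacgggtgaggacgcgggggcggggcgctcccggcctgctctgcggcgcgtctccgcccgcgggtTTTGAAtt
Ccnb1, chr2:33655226-33655475, minus strand: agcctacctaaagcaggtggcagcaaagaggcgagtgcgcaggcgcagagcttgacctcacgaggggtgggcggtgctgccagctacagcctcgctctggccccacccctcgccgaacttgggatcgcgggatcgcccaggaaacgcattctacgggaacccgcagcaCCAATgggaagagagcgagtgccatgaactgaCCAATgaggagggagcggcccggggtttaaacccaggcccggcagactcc
The first 3 promoters hold both motifs and that of Ccnb1 holds CCAAT. In this window 24 of the 29 mitosis promoters that could be matched (82.8%) held CCAAT and 15 (51.7%) held TTTGAA, against 34.3% and 16% of 27457 rat promoters. Counted to 50 bases after the start, TTTGAA was in 22 of 29, against 18.1% of all. Of 22 replication promoters 12 held CCAAT and 1 held TTTGAA. The letters CCAAT and TTTGAA do not overlap each other, and such a match describes the sequence and is no evidence of binding.

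Of 26 replication genes 12 rose in DMN livers and none fell, with a median of 0.54. The mean level of the list, relative to the untreated mean, was 1.05, 0.43, 0.93, 0.83 and 0.67 in DMN arrays 1 to 5 and -0.09 to 0.29 in DNP arrays, so the groups did not overlap. Mcm6 was at 8.61, 6.55, 8.38, 7.71 and 6.69 in DMN livers and at 4.69, 4.59, 4.89, 5.03 and 4.72 in DNP livers. Rfc4, a subunit of the loader that puts the sliding clamp on DNA, was at 8.54, 8.26, 8.74, 8.71 and 8.15 in DMN livers and at 7.26, 6.41, 6.79, 6.52 and 6.63 in DNP livers (3.38-fold, 1.76 ± 0.29 SE, adjusted p = 0.000184). For both genes the DMN arrays, DMN 2 among them, lay above every DNP array. Rfc3, another subunit of that loader, rose 2.73-fold and Tyms, which makes thymidylate, 3.12-fold (adjusted p = 0.000718 and 0.00145). Pcna, the sliding clamp itself, was named after its values were seen and rose 1.76-fold (adjusted p = 0.0113).

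Of 33 mitosis genes 13 rose and none fell, with a median of 1.16, the largest of the 37 lists, and without DMN 2 there were 19, with a median of 1.50. Averaged over the list, the level was 1.94, 0.34, 1.84, 1.93 and 0.89 in DMN arrays 1 to 5, against 0.86, 0.29, -0.05, 0.10 and 0.10 in DNP arrays 1 to 5. DMN 2 thus lay below DNP 1 alone and above the other DNP arrays, by little over DNP 2. DNP 1, 1 of the arrays low in GAPDH 5′ signal, came close to DMN 5. Cdk1, the kinase that drives entry into mitosis, was at 10.48, 8.52, 10.06, 10.15 and 8.91 in DMN livers and at 8.10, 7.25, 6.60, 7.21 and 7.46 in DNP livers (4.93-fold, 2.30 ± 0.47 SE, adjusted p = 0.00171). Ube2c, which tags cyclins for destruction, was at 10.57, 8.25, 10.35, 10.38 and 10.28 in DMN livers and 8.63, 6.87, 6.21, 7.25 and 7.51 in DNP livers (6.37-fold, adjusted p = 0.00125). The proliferation marker Mki67 was at 7.88, 5.50, 8.25, 7.56 and 6.09 in DMN livers against 5.68, 5.87, 5.16, 5.07 and 5.90 in DNP livers (2.86-fold, adjusted p = 0.0206). In Ube2c and Mki67 the DMN 2 value fell inside the DNP range, for Ube2c only through DNP 1, at 8.63 against at most 7.51 in the other DNP arrays. The kinesin gene Kif20b, near background in DNP livers, rose at least 5.17-fold, the cyclin gene Ccna2 6.23-fold, the topoisomerase gene Top2a 2.63-fold and the survivin gene Birc5 2.59-fold (adjusted p = 0.00106, 0.0113, 0.00106 and 0.00433). Cyclin B1 (Ccnb1) was 2.38-fold higher (adjusted p = 0.0326). Mki67 lost its call without DMN 1, 3 or 4 or DNP 3 or 4 (adjusted p from 0.0514 to 0.0882), and Ccnb1 without DMN 1, 3 or 4 or DNP 1, 3 or 5 (adjusted p from 0.0521 to 0.121). The part of low GAPDH 5′ signal in the level of DNP 1 was not tested.

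**Figure D3:**
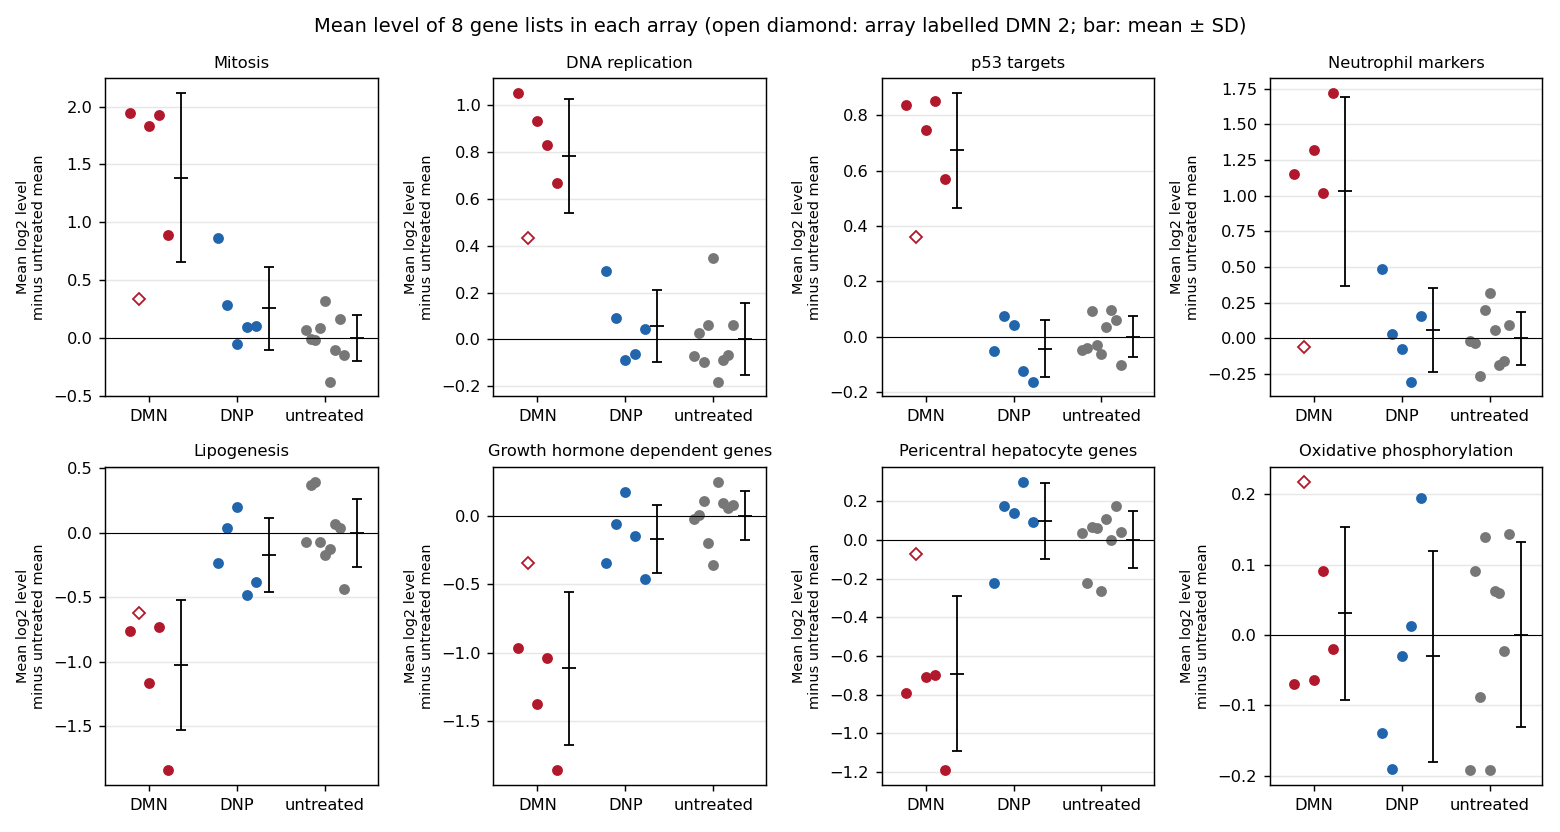
Mean log2 level of 8 gene lists on each DMN, DNP and untreated array, minus the untreated mean, with the group mean ± SD beside the points. DMN 2, the open diamond, lies between the other DMN arrays and the DNP arrays for p53 targets and replication. It lies among the DNP arrays for neutrophil markers and growth hormone dependent genes. For mitosis it lies below DNP 1 alone and above the other DNP arrays. The oxidative phosphorylation list overlaps between the groups.

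Genes of fatty acid synthesis were lower in DMN livers. Of 20 lipogenesis genes 10 fell and none rose, with a median of -0.94, and without DMN 2 the count was 12. The list level was -0.76, -0.62, -1.16, -0.73 and -1.84 in DMN arrays 1 to 5 and -0.49 to 0.20 in DNP arrays, so that DMN 2 lay below the DNP arrays here. Scd, which puts the double bond into stearate, was at 11.01, 11.17, 9.78, 11.40 and 9.99 in DMN livers and at 12.41, 12.38, 12.84, 12.67 and 12.39 in DNP livers (3.65-fold lower, -1.87 ± 0.37 SE, adjusted p = 0.00155). Pklr, the pyruvate kinase of liver, was at 9.36, 11.23, 8.63, 9.63 and 8.43 in DMN livers and 11.63, 11.24, 11.82, 10.84 and 11.25 in DNP livers (3.73-fold lower, adjusted p = 0.00481). No DMN value of Scd reached the DNP range, whereas the DMN 2 value of Pklr was inside it. Acss2, which makes acetyl-CoA from acetate, fell 3.66-fold, the malic enzyme gene Me1 2.63-fold, the carboxylase gene Acaca 2.29-fold and the elongase gene Elovl5 2.05-fold (adjusted p = 0.0117, 0.00211, 0.0045 and 0.00157). Acss2 lost its call without DMN 5 (adjusted p = 0.0511), Pklr without DMN 3 and DNP 1 (adjusted p = 0.0501), and Elovl5 and Me1 with the mean of their probe sets (adjusted p = 0.185 and 0.0598). Acly, which supplies acetyl-CoA from citrate, fell 2.82-fold (adjusted p = 0.03), a call lost without DMN 4 or 5 or DNP 1, 2 or 3 (adjusted p from 0.0603 to 0.0958). The fatty acid synthase gene Fasn was at 10.68, 10.62, 9.44, 10.24 and 8.24 in DMN livers and 11.01, 11.49, 11.19, 10.42 and 10.75 in DNP livers (adjusted p = 0.086, and 0.0417 without DMN 2). The master regulator Srebf1 differed by -0.46 (adjusted p = 0.466), and Thrsp, a thyroid hormone responsive lipogenic gene, by -0.50 (adjusted p = 0.158, and 0.0319 without DMN 2). Cholesterol synthesis had 1 of 19 members lower, 5.26% against 3.04% of all genes, and none higher (median -0.48). The member was Cyp51, which demethylates lanosterol (2.3-fold, adjusted p = 0.0327), and its call was lost without DMN 3 or 5 or DNP 2, 3, 4 or 5 (adjusted p from 0.0568 to 0.122); its difference was -0.79 without DMN 5, against -1.20 with it.

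Growth hormone dependent genes were lower in the DMN arrays other than DMN 2. Of 18 measured 7 fell and none rose, with a median of -0.80, and the list level was -0.97, -0.34, -1.37, -1.04 and -1.86 in DMN arrays 1 to 5, against -0.34, -0.06, 0.17, -0.15 and -0.46 in DNP arrays 1 to 5. Cyp2c11, the main cytochrome P450 of male rat liver, was at 11.55, 13.28, 10.48, 10.65 and 10.92 in DMN livers and at 13.49, 13.34, 13.53, 13.38 and 13.24 in DNP livers (4.05-fold lower, -2.02 ± 0.42 SE, adjusted p = 0.00222). Stac3, an adaptor protein best known from muscle, was at 5.43, 9.79, 5.38, 5.42 and 6.34 in DMN livers and at 10.54, 10.41, 11.60, 10.41 and 9.21 in DNP livers (15.6-fold lower, adjusted p = 0.000443). DMN 2 lay inside the DNP range in both genes, and the other 4 DMN arrays far below it. Without DMN 2 the differences were -2.49 and -4.79, against -2.02 and -3.96 with it. Igfals, which carries insulin-like growth factors in plasma, fell 2.58-fold (adjusted p = 0.0076), with 10.22, 10.63, 9.89, 9.91 and 7.36 in DMN livers and 10.90, 11.02, 11.03, 11.05 and 10.85 in DNP livers; its difference was -1.37 with DMN 5 and -0.81 without it (adjusted p = 0.0192). Ghr, the growth hormone receptor itself, was named after its values were seen and fell 2.01-fold (adjusted p = 0.00195), with 10.27, 11.69, 10.32, 10.38 and 10.71 in DMN livers and 11.75, 11.71, 11.72, 11.55 and 11.68 in DNP livers; with the mean of its probe sets the call was lost (adjusted p = 0.2). Obp3, a urinary protein, fell 2.8-fold (adjusted p = 0.0342), a call lost without DMN 1, 3, 4 or 5 or DNP 1, 2 or 3 (adjusted p from 0.0597 to 0.101).

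Genes of both ends of the liver lobule were among the falls. Of 16 pericentral hepatocyte genes, which are read around the central vein, 5 fell and 1 rose (median -0.68), and without DMN 2 there were 8 and 1. Besides Oat and Slc13a3, the glutamate carrier gene Slc1a2 fell 2.57-fold (adjusted p = 0.00106), with 4.82, 6.47, 5.57, 4.89 and 6.65 in DMN livers and 7.08, 7.10, 6.87, 7.22 and 6.95 in DNP livers. The other falls, named after their values were seen, were Rgn, a calcium-binding lactonase (2.09-fold, adjusted p = 0.0375), and the sterol hydroxylase gene Cyp27a1 (1.53-fold, adjusted p = 0.0122). Aldh1a1, a retinal dehydrogenase, was the member that rose (2.93-fold, adjusted p = 0.0326). Rgn lost its call without DMN 1, 3 or 5 or DNP 1, 2, 3 or 4 (adjusted p from 0.0573 to 0.141), Cyp27a1 without DMN 5 (adjusted p = 0.0536), and Aldh1a1 without DMN 1, 3 or 4 or DNP 2, 3, 4 or 5 (adjusted p from 0.0543 to 0.1). The difference of Rgn was -0.60 without DMN 5, against -1.06 with it. Cyp2e1, which activates dimethylnitrosamine, was at 13.07, 13.40, 13.12, 12.71 and 11.32 in DMN livers and at 12.99, 13.41, 13.41, 13.52 and 13.43 in DNP livers, a difference of -0.63 ± 0.23 SE that did not pass (adjusted p = 0.0881, and 0.0215 without DMN 2). DMN 5 carried much of this difference, at 11.32 against 12.71 to 13.40 in the other DMN arrays. DMN 1, 2 and 3 were inside the DNP range, but only through DNP 1, at 12.99. All DMN arrays lay below the other DNP arrays, which were at 13.41 to 13.52, DMN 2 only just, at 13.40. Of 16 periportal genes 3 fell and none rose (median -0.23). They were the proline oxidase gene Prodh (2.34-fold), the liver glutaminase gene Gls2 (2.22-fold) and the sarcosine dehydrogenase gene Sardh (1.6-fold), at adjusted p = 0.000297, 0.000321 and 0.00451, and with the mean of its probe sets Sardh was at adjusted p = 0.23. Prodh was at 9.81, 10.21, 9.68, 9.99 and 9.76 in DMN livers and 11.16, 10.56, 11.54, 11.15 and 11.15 in DNP livers, and DMN 2 was the DMN array nearest to the DNP group without reaching it.

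Genes of drug metabolism fell in single members. Of 27 xenobiotic cytochromes P450 5 fell and none rose (median -0.38), and without DMN 2 there were 9. After Cyp2c11 came Cyp2j3, an arachidonic acid epoxygenase (2.89-fold), and Cyp2d4 (1.68-fold), at adjusted p = 0.00473 and 0.00559. Cyp2j4 and, named after its values were seen, the male-pattern Cyp2a2 fell 1.73-fold and 1.44-fold (adjusted p = 0.0397 and 0.0382), calls lost without DMN 1, 3 or 5 or DNP 1, 2, 3, 4 or 5 (adjusted p from 0.0518 to 0.133) and without DMN 1, 3 or 5 or DNP 1, 2, 3 or 4 (adjusted p from 0.0608 to 0.0999). Of 25 conjugation enzymes 3 fell and none rose (median 0.07), Inmt among them. Gstm7, a glutathione transferase, was at 9.30, 10.77, 8.93, 9.11 and 8.17 in DMN livers and 11.14, 11.20, 11.11, 11.29 and 10.53 in DNP livers (3.48-fold lower, adjusted p = 0.000479), with DMN 2 inside the DNP range. Gstt2, of the same family, fell 1.72-fold (adjusted p = 0.0335), a call lost without DMN 1, 4 or 5 or DNP 1, 4 or 5 (adjusted p from 0.0527 to 0.124); its difference was -0.51 without DMN 5, against -0.78 with it.

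Bile acid genes fell in 6 of 26 cases and rose in none (median -0.54). Per array, the level of this list read -0.10, 0.02, -0.04, -0.285 and -0.95 for DMN 1 to 5. DNP livers spanned -0.02 to 0.30 and untreated livers -0.36 to 0.26. Only DMN 5 thus lay outside the untreated span, so as a whole the list overlapped between DMN and untreated livers. The sinusoidal uptake carriers were among them: Slco2b1 fell 2.15-fold, Slco1b2 1.85-fold and Slc10a1, the sodium-dependent bile acid carrier, 1.74-fold (adjusted p = 0.00112, 0.0189 and 0.0289). Amacr, a racemase of bile acid side chain oxidation, fell 2.21-fold (adjusted p = 0.00507), with 10.51, 12.25, 10.69, 10.72 and 10.77 in DMN livers and 12.03, 12.05, 12.17, 12.47 and 11.95 in DNP livers, so that DMN 2 was among the DNP arrays. Slc27a5, which activates bile acids for conjugation and was named after its values were seen, fell 1.6-fold (adjusted p = 0.0132), with 11.77, 11.80, 11.71, 11.87 and 11.60 in DMN livers, DMN 2 in their midst, and 12.44, 12.47, 12.49, 12.60 and 12.13 in DNP livers. The sixth was Cyp27a1. Without DMN 3 and DNP 1 Slc27a5 was at adjusted p = 0.054. Slco1b2 lost its call without DMN 5 or DNP 4 (adjusted p from 0.0541 to 0.0805), and Slc10a1 without DMN 3 or 5 or DNP 3 or 4 (adjusted p from 0.0515 to 0.107). The difference of Slc10a1 was -0.46 without DMN 5, against -0.80 with it. For Slco2b1, DMN 5 stood apart at 7.95, the next lowest DMN value being 9.21. Slco2b1 nonetheless stayed called in every fit without 1 array.

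**Figure D4:**
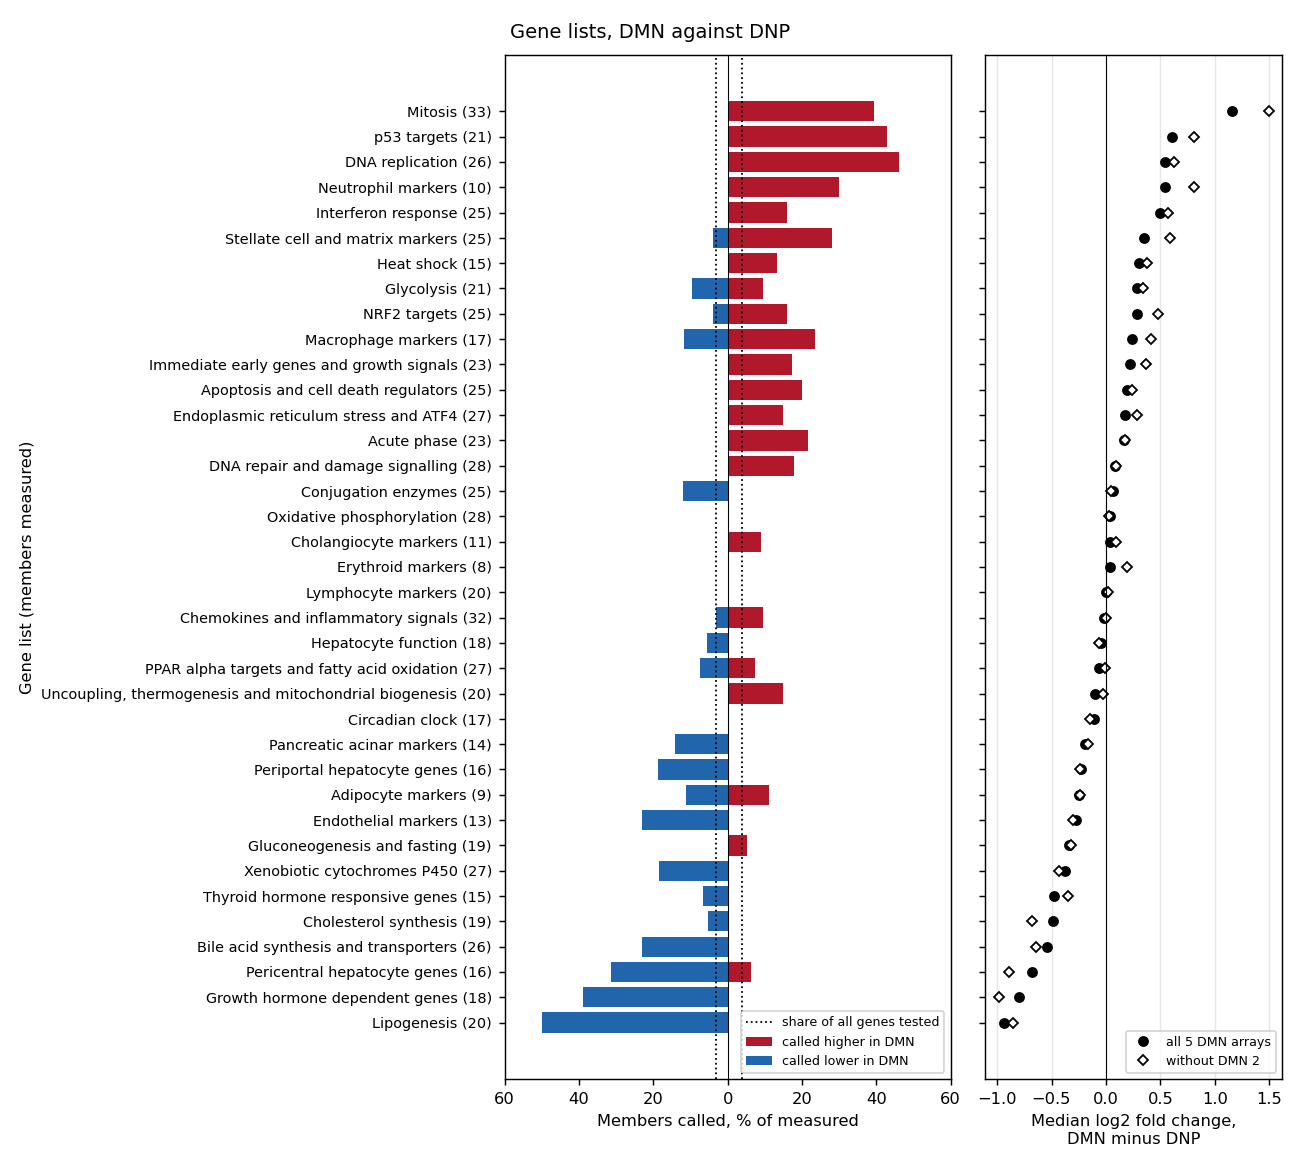
Share of the measured members of each gene list called higher (right) or lower (left) in DMN than in DNP livers, with dotted lines at the shares of all genes, 3.85% and 3.04%, and, in the second panel, the median log2 fold change of each list with and without the array labelled DMN 2. Mitosis, p53 targets and replication stand at the top and lipogenesis, growth hormone dependent and pericentral genes at the bottom in both.

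Stress genes rose in small numbers. Of 27 genes of endoplasmic reticulum stress and the ATF4 response 4 rose and none fell (median 0.17). Ddit4, an inhibitor of mTOR signalling, was at 8.81, 8.35, 7.71, 8.32 and 11.28 in DMN livers and at 6.10, 7.39, 6.21, 6.04 and 6.24 in DNP livers (5.65-fold, 2.50 ± 0.44 SE, adjusted p = 0.000409). Ddit3, the transcription factor CHOP, was at 7.81, 8.77, 8.75, 7.72 and 10.41 in DMN livers and 7.69, 7.20, 6.76, 6.74 and 6.90 in DNP livers (3.11-fold, adjusted p = 0.00462). DMN 2 was inside the DMN group for both, and DMN 5 the highest array. Atf3, an early stress transcription factor, was at 9.44, 5.55, 8.80, 7.41 and 11.50 in DMN livers and 5.58, 6.07, 5.38, 4.53 and 5.91 in DNP livers (8.28-fold, adjusted p = 0.00588), with DMN 2 inside the DNP range. The difference in Atf3 was 3.05, with 3.80 without DMN 2 and 2.31 without DMN 5, and that in Ddit4 was 1.90 without DMN 5. Asns, which makes asparagine, rose 2.08-fold (adjusted p = 0.0389), a call lost without DMN 1, 3, 4 or 5 or DNP 2 or 3 (adjusted p from 0.0557 to 0.108). Among 23 immediate early genes and growth signals 4 rose and none fell (median 0.22): Atf3, the AP-1 subunit gene Jun (4.56-fold, adjusted p = 0.00584), Ccnd1 and the transcription factor gene Klf4 (2.27-fold, adjusted p = 0.0285, lost without DMN 3 or 5 or DNP 3 or 4 (adjusted p from 0.0667 to 0.103)). Jun was at 9.65, 7.76, 9.14, 9.58 and 12.11 in DMN livers, 6.99, 7.998, 8.45, 6.70 and 7.16 in DNP livers and 8.48 ± 0.49 in untreated livers, which lay between the treated groups, and DMN 2 was inside the DNP range. Its difference was 2.19, and 1.57 without DMN 5.

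Heat shock genes had 2 of 15 members higher and none lower (median 0.30), Cryab and the co-chaperone gene Stip1 (1.9-fold, adjusted p = 0.000929). Of 25 targets of NRF2, the regulator of antioxidant genes, 4 rose and 1 fell (median 0.28). Srxn1, which repairs peroxiredoxins, was at 10.24, 8.05, 10.42, 10.32 and 10.73 in DMN livers and 7.99, 8.97, 8.22, 8.05 and 7.90 in DNP livers (3.31-fold, adjusted p = 0.0184), so that only DMN 2 was in the DNP range. Akr1b8, an aldose reductase, was at 6.89, 6.93, 7.27, 6.67 and 8.90 in DMN livers and 5.89, 6.09, 5.46, 5.94 and 5.32 in DNP livers (3.01-fold, adjusted p = 0.0241), and there the groups did not overlap. Akr7a3, which detoxifies aflatoxin aldehyde, and, named after its values were seen, Taldo1 of the pentose phosphate pathway rose 2.1-fold and 1.4-fold (adjusted p = 0.0349 and 0.0186), and the member that fell was Me1. The calls were lost without DMN 3 or 5 (adjusted p from 0.0521 to 0.0547) for Srxn1, DMN 5 or DNP 3 or 5 (adjusted p from 0.0525 to 0.0871) for Akr1b8, DMN 1, 2, 3 or 4 or DNP 2 or 4 (adjusted p from 0.0645 to 0.145) for Akr7a3 and DMN 3 or DNP 2 or 3 (adjusted p from 0.0614 to 0.0633) for Taldo1. With the mean of its probe sets Srxn1 was at adjusted p = 0.142.

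Inflammatory genes were higher in part. Of 23 acute phase genes 5 rose and none fell (median 0.17), and the list level was 0.61, -0.06, 0.54, 0.48 and 0.59 in DMN arrays 1 to 5 against -0.25 to 0.15 in DNP arrays. Lcn2, an iron-scavenging protein, was at 12.99, 7.997, 12.49, 12.69 and 13.19 in DMN livers and at 6.69, 6.89, 8.88, 7.04 and 6.39 in DNP livers (25.8-fold, 4.69 ± 1.02 SE, adjusted p = 0.0031). Hamp, the iron hormone hepcidin, was at 13.001, 11.02, 12.90, 12.53 and 13.48 in DMN livers and 11.25, 8.06, 10.62, 10.18 and 10.33 in DNP livers (5.65-fold, adjusted p = 0.00891), with untreated livers between them at 11.09 ± 0.63. DMN 2 was inside the DNP range in both genes, each time through 1 DNP array. For Lcn2 this was DNP 3, at 8.88 against at most 7.04 in the others. For Hamp it was DNP 1, at 11.25 against at most 10.62. Without DMN 2 the difference in Lcn2 was 5.66. The lipopolysaccharide-binding protein gene Lbp, the transcription factor gene Cebpd and, named after its values were seen, the orosomucoid gene Orm1 rose 2.43-fold, 2.09-fold and 1.7-fold (adjusted p = 0.0304, 0.0326 and 0.0375). Their calls were lost without DMN 1, 3 or 5 or DNP 1, 4 or 5 (adjusted p from 0.0539 to 0.0929) for Lbp, DMN 1, 3 or 5 or DNP 1, 3 or 4 (adjusted p from 0.0508 to 0.11) for Cebpd and DMN 1, 3, 4 or 5 or DNP 1, 4 or 5 (adjusted p from 0.0525 to 0.125) for Orm1. With the mean of its probe sets, of which 1 of 3 has the opposite sign, Cebpd was at adjusted p = 0.315.

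Of 32 chemokines and inflammatory signals 3 rose and 1 fell (median -0.01). Ccl2, which draws in monocytes, was at 7.31, 7.82, 7.43, 6.83 and 9.70 in DMN livers and at 6.47, 5.82, 5.09, 5.89 and 6.47 in DNP livers (3.66-fold, 1.87 ± 0.43 SE, adjusted p = 0.00514), and DMN 2 was the second highest of the DMN arrays. Ccl21, a chemokine for lymphocytes and dendritic cells, rose 2.26-fold and the NF-kappa-B inhibitor gene Nfkbia 1.94-fold, while Cxcl12, a retention signal for blood cells, fell 1.69-fold (adjusted p = 0.0109, 0.0241 and 0.0303). Ccl21 lost its call without DMN 5 (adjusted p = 0.0508), Nfkbia without DMN 1 or 5 or DNP 1 or 4 (adjusted p from 0.0516 to 0.0973) and Cxcl12 without DMN 5 or DNP 1, 2 or 4 (adjusted p from 0.0592 to 0.105). Of 25 interferon response genes 4 rose and none fell (median 0.50), and 1 array carried much of this: the list level was -0.06, -0.03, 1.61, 0.33 and -0.27 in DMN arrays 1 to 5 and -0.54 to -0.05 in DNP arrays. In untreated arrays it ran from -0.19 to 0.82, so that an untreated liver lay above every DMN array but DMN 3. Against untreated livers 1 member was called higher in DMN livers, and the list median of DNP livers was -0.19. The ubiquitin-like Isg15 was at 8.07, 8.73, 12.29, 9.39 and 8.95 in DMN livers and 8.20, 7.42, 7.47, 7.02 and 7.70 in DNP livers (1.92 ± 0.58 SE, adjusted p = 0.0349), and its difference was 1.22 without DMN 3 (adjusted p = 0.172). The antigen peptide carrier genes Tap1 and Tap2 and the immunoproteasome gene Psmb10 were at adjusted p = 0.0116, 0.0446 and 0.0176, and at 0.0577, 0.139 and 0.073 without DMN 3. Over all single arrays, Isg15 lost its call without DMN 3 or 4 or DNP 2, 3, 4 or 5 (adjusted p from 0.0534 to 0.172), Tap2 without DMN 1, 3 or 4 or DNP 1, 2, 4 or 5 (adjusted p from 0.0727 to 0.139) and Psmb10 without DMN 3 or DNP 2 (adjusted p from 0.0607 to 0.073).

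Markers of other cells in the liver moved in both directions. Of 17 macrophage markers 4 rose and 2 fell, with the median at 0.24. Gpnmb, a glycoprotein of lipid-laden macrophages, was at 11.63, 9.34, 11.89, 11.38 and 11.58 in DMN livers and at 8.24, 7.57, 9.52, 7.51 and 8.24 in DNP livers (7.74-fold, 2.95 ± 0.44 SE, adjusted p = 5.47e-05). Lyz2, the lysozyme of myeloid cells, was at 12.99, 11.61, 13.12, 12.73 and 12.72 in DMN livers and 11.07, 10.39, 10.67, 10.57 and 10.85 in DNP livers (3.8-fold, adjusted p = 2.93e-05). Aif1 and osteopontin (Spp1) rose 2.27-fold and 2.18-fold (adjusted p = 0.00504 and 0.00959); 1 of 2 probe sets of Aif1 has the opposite sign, and their mean was at adjusted p = 0.274. The members that fell were named after their values were seen. Clec4f, a lectin of the resident Kupffer cells, was at 10.72, 11.03, 11.22, 11.27 and 10.85 in DMN livers and 11.89, 11.60, 11.77, 11.43 and 11.89 in DNP livers (1.62-fold lower, adjusted p = 0.00438), and Cd14, the co-receptor for lipopolysaccharide, fell 1.97-fold (adjusted p = 0.0184, lost without DMN 4 or DNP 5 (adjusted p from 0.0541 to 0.0874)).

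Neutrophil markers had 3 of 10 members higher and none lower (median 0.54): Adam8 and the calgranulin genes S100a8 and S100a9. S100a8 was at 9.62, 6.54, 10.43, 9.67 and 11.23 in DMN livers and at 7.98, 7.12, 7.16, 6.35 and 7.28 in DNP livers (4.99-fold, 2.32 ± 0.51 SE, adjusted p = 0.00349), with DMN 2 inside the DNP range and the other 4 DMN arrays above it, so that the difference was 3.06 without DMN 2. S100a9 was below the DNP range in DMN 2 and above it in the other 4 DMN arrays (4.01-fold, a difference of 2.005, adjusted p = 0.0336, and 2.82 with adjusted p = 0.000178 without DMN 2); its call was lost without DMN 1, 3, 4 or 5 or DNP 2, 3 or 4 (adjusted p from 0.0624 to 0.104). Across the list the level was -0.06 in DMN 2, 1.02 to 1.72 in the other DMN arrays and -0.31 to 0.48 in DNP arrays. None of 20 lymphocyte markers was called by limma (median 0.00), nor any of 8 erythroid markers (median 0.03), and 2 markers of each list had an unadjusted p under 0.05. The erythroid list level ran from -0.36 to 1.22 in DMN arrays and from -0.20 to 0.23 in DNP arrays. The part of these cells in the other results was not tested.

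The sinusoidal wall and the matrix differed too. Of 13 endothelial markers 3 fell and none rose (median -0.28). Stab2, the hyaluronan scavenger receptor of sinusoidal endothelium, was at 7.93, 9.36, 7.21, 7.27 and 7.34 in DMN livers and at 10.37, 10.31, 9.83, 9.48 and 10.02 in DNP livers (4.53-fold lower, -2.18 ± 0.34 SE, adjusted p = 7.84e-05). Kdr, a receptor for vascular endothelial growth factor, was at 8.81, 9.62, 8.51, 8.61 and 7.64 in DMN livers and 10.41, 10.08, 10.13, 10.17 and 10.24 in DNP livers (2.96-fold lower, adjusted p = 0.00178). In both genes the groups did not overlap and DMN 2 was the DMN array nearest to the DNP group. Stab1 fell 1.82-fold (adjusted p = 0.0287), a call lost without DMN 1, 3 or 4 or DNP 1 or 3 (adjusted p from 0.052 to 0.1). Of 25 stellate cell and matrix markers 7 rose and 1 fell (median 0.35), Lama5 first. Against untreated livers the median of this list was 0.04 in DMN livers and -0.22 in DNP livers. The list level ran from 0.07 to 0.52 in DMN arrays, from -0.39 to -0.12 in DNP arrays and from -0.35 to 0.40 in untreated arrays. As a whole the list thus overlapped between DMN and untreated livers. Tagln, a smooth muscle protein of contractile cells, was at 9.42, 8.62, 8.78, 8.49 and 10.59 in DMN livers and at 6.59, 5.81, 7.37, 6.11 and 6.71 in DNP livers (6.33-fold, 2.66 ± 0.43 SE, adjusted p = 0.00015). All 5 DMN arrays were above the DNP arrays, and untreated livers, at 7.22 ± 0.75, above the DNP mean. The protease inhibitor gene Timp1 and the growth factor gene Tgfb1 rose 2.38-fold and 2.26-fold (adjusted p = 0.0241 and 0.024), calls lost without DMN 5 or DNP 1 or 4 (adjusted p from 0.0558 to 0.0898) and without DMN 1 or 5 or DNP 1 or 4 (adjusted p from 0.0521 to 0.0841). Col3a1, a fibrillar collagen named after its values were seen, was the member that fell, with 10.81, 11.10, 10.61, 10.44 and 10.56 in DMN livers and 12.16, 11.73, 11.65, 11.51 and 11.41 in DNP livers (1.98-fold, adjusted p = 0.00566, and 0.054 without DMN 3 and DNP 1).

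Other marker lists had few calls. Of 11 cholangiocyte markers Spp1 alone rose, which is also on the macrophage list. Of 9 adipocyte markers Fabp4 rose and the complement factor gene Cfd fell (2.06-fold, adjusted p = 0.0116, and 0.0776 without DMN 3 and DNP 1). Among 14 pancreatic acinar markers 2 fell and none rose, the elastase gene Cela1 (3.54-fold, adjusted p = 0.00299) and the lipase gene Pnlip (1.74-fold, adjusted p = 0.0493). Cela1 was at 7.25, 9.51, 7.43, 6.99 and 8.12 in DMN livers and 10.27, 9.28, 9.05, 9.98 and 9.83 in DNP livers, and the untreated livers, at 9.70 ± 0.47, were close to the DNP group. Pnlip lost its call without DMN 1, 2, 3 or 4 or DNP 1, 2 or 5 (adjusted p from 0.0716 to 0.162).

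Of the genes of the process that dinitrophenol acts on, those of the respiratory chain were not called and 3 linked to mitochondria rose. Of 28 oxidative phosphorylation genes limma called none (median 0.03) and 0 had an unadjusted p under 0.05, and the list level ran from -0.07 to 0.22 in DMN arrays and from -0.19 to 0.19 in DNP arrays. The members with the largest differences were Ndufb8 of complex I, which was low on the arrays with little GAPDH 5′ signal, at 10.10, 10.64, 7.54, 10.26 and 10.72 in DMN livers and 5.61, 9.87, 10.09, 10.25 and 10.51 in DNP livers (0.58 ± 0.86 SE, adjusted p = 0.739), and Sdha of complex II (-0.38 ± 0.19 SE, adjusted p = 0.239). Of 20 genes of uncoupling, thermogenesis and mitochondrial biogenesis 3 rose in DMN livers and none fell (median -0.10). Atp5if1, which inhibits ATP hydrolysis by the ATP synthase, was at 9.90, 9.25, 10.27, 10.05 and 10.80 in DMN livers and 9.81, 8.47, 8.10, 8.66 and 9.12 in DNP livers (2.33-fold, adjusted p = 0.0047). Slc25a4, an ATP and ADP carrier of the inner membrane, was at 8.58, 8.98, 8.58, 8.88 and 8.94 in DMN livers and 7.59, 7.88, 8.13, 7.31 and 7.95 in DNP livers (2.03-fold, adjusted p = 0.00302), and the nuclear receptor gene Esrra rose 1.51-fold (adjusted p = 0.00595). For all 3 genes the untreated mean was close to the DNP mean. Ucp2, an uncoupling protein, was at 10.52, 9.58, 9.86, 9.50 and 11.09 in DMN livers and 9.18, 9.20, 9.92, 9.45 and 9.68 in DNP livers (adjusted p = 0.149).

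Fuel use genes changed one by one. Of 21 glycolysis genes 2 rose and 2 fell (median 0.28). The muscle-type aldolase gene Aldoa was at 11.90, 11.14, 12.12, 11.80 and 12.39 in DMN livers and 10.47, 11.19, 10.86, 10.49 and 10.64 in DNP livers (2.2-fold higher, adjusted p = 0.00141). Pfkfb1, a liver enzyme that sets the pace of glycolysis against gluconeogenesis, was at 9.12, 10.79, 9.10, 9.54 and 9.08 in DMN livers and 11.26, 10.49, 11.01, 11.20 and 11.17 in DNP livers (2.83-fold lower, adjusted p = 0.00107). In both genes DMN 2 was inside the DNP range. The other fall was Pklr and the other rise the glucose carrier gene Slc2a1 (2.2-fold, adjusted p = 0.0347), whose call was lost without DMN 3 or 5 or DNP 1, 4 or 5 (adjusted p from 0.0586 to 0.123). Of 27 PPAR alpha targets and fatty acid oxidation genes 2 rose and 2 fell (median -0.06): the hormone gene Fgf21 (2.86-fold) and the lipid droplet gene Cidea (2.48-fold) against the peroxisomal genes Ehhadh (2.97-fold) and Pex11a (1.82-fold), at adjusted p = 0.0252, 0.0256, 0.0036 and 0.03. Fgf21 lost its call without DMN 5 or DNP 3 (adjusted p from 0.063 to 0.0855), Cidea without DMN 3 or 4 or DNP 1, 2 or 4 (adjusted p from 0.0515 to 0.084) and Pex11a without DMN 2, 4 or 5 or DNP 2, 3 or 5 (adjusted p from 0.0549 to 0.11). Ehhadh differed by -1.02 once DMN 5 was left out, against -1.57 with it, and Slc2a1 by 0.58, against 1.14. Of 19 gluconeogenesis and fasting genes Pck2, the mitochondrial carboxykinase, rose (1.86-fold, adjusted p = 0.01, and 0.0609 without DMN 3 and DNP 1) and none fell (median -0.34). Of 15 thyroid hormone responsive genes Me1 fell and none rose (median -0.47), and of 17 circadian clock genes limma called none, with 4 at an unadjusted p under 0.05 (median -0.11), the largest difference being that of Npas2 (-1.30 ± 0.42 SE, adjusted p = 0.0506).

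The array labelled DMN 2 could be examined on genes chosen without it. On the 1390 genes called between the other 4 DMN arrays and the DNP arrays, it lay on the DMN side of the midpoint of their means in 477, or 34.3%. The 9 untreated arrays did so in 6.76% to 22.6%. It was outside all 5 DNP arrays in the DMN direction in 584 genes, or 42%, against 14.2% to 29.9% for the untreated arrays, and its median position was 0.304 of the way from the DNP mean to the mean of the other DMN arrays. Gene groups differed in this. It was on the DMN side for 7 of 8 stellate cell and matrix genes, 4 of 5 DNA repair genes, 4 of 6 apoptosis regulators, 6 of 12 replication genes, 5 of 12 p53 targets and 5 of 12 lipogenesis genes. For mitosis it was so in 1 of 19 genes, for growth hormone dependent genes in 1 of 7, for xenobiotic cytochromes P450 in 1 of 9, for neutrophil markers in 1 of 5 and for acute phase genes in 0 of 5. The untreated arrays were on that side for 0 to 3 of the matrix genes, 0 to 1 of the repair genes and 0 to 3 of the mitosis genes. For apoptosis regulators they were so in 0 to 2, for replication genes in 0 to 4, for p53 targets in 0 to 2 and for lipogenesis genes in 0 to 1. Of the 12 replication genes, 9 were outside all DNP arrays in the DMN direction in DMN 2, and 9 in untreated 5. Of the 5 repair genes this held for 3 in each of these arrays. The counts for DMN 2 describe 1 array and carry no test. Without DMN 2 list counts rose along with the share over all genes, 5.3% higher and 4.47% lower against 3.85% and 3.04% with it, so a list that gained 1 or 2 calls is not told apart from the rest. Of 15 thyroid hormone responsive genes 5 fell, against 1 with DMN 2, of 26 bile acid genes 9 fell and 1 rose, against 6 and 0, and of 10 neutrophil markers 5 rose, against 3. Named genes showed the same range: Mgmt was at 9.94 in DMN 2 against 10.13 to 10.69 in the other DMN arrays and at most 8.66 in DNP arrays, whereas Lcn2 was at 7.997 in DMN 2 against 12.49 to 13.19 in the other DMN arrays and at most 8.88 in DNP arrays.

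**Figure D5:**
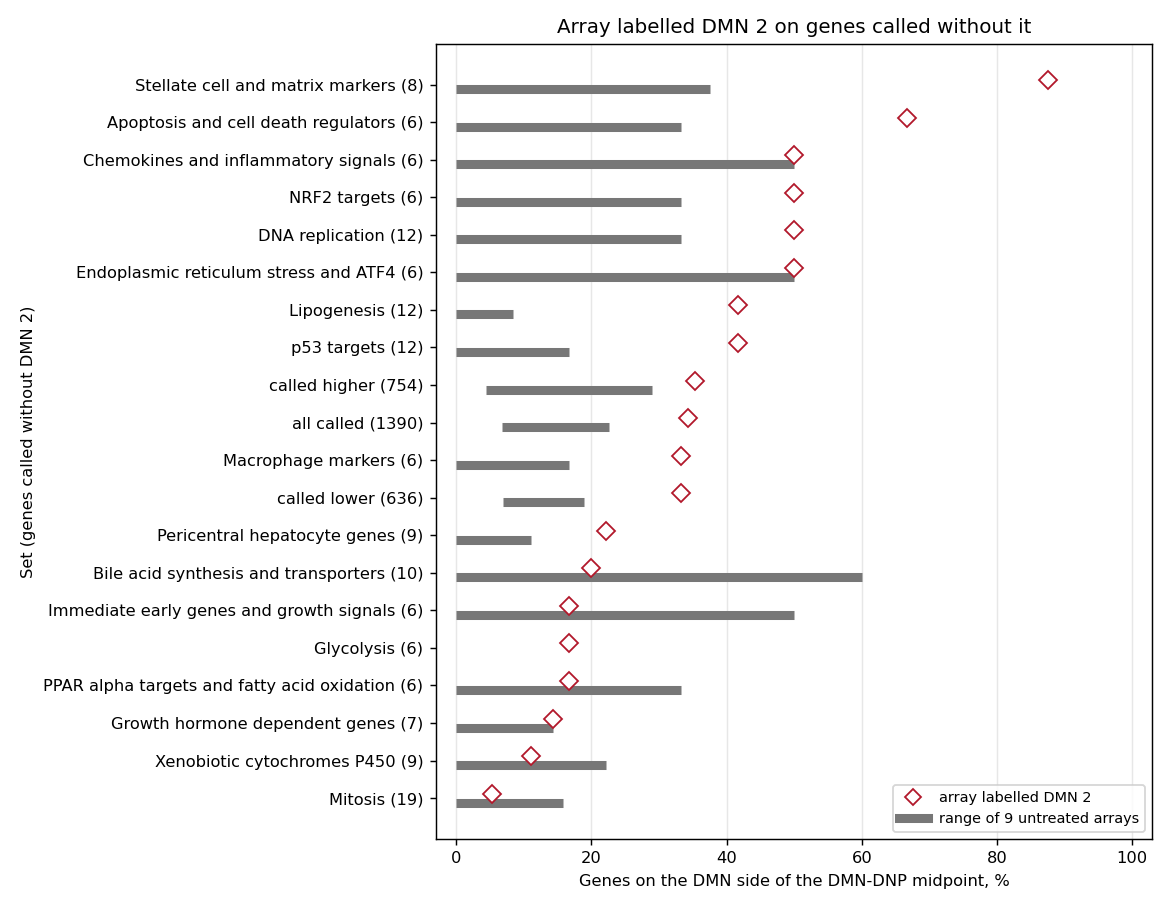
Share of genes on which the array labelled DMN 2 (open diamonds) lies on the DMN side of the midpoint between the other 4 DMN arrays and the DNP arrays, for all genes called without it, for each direction and for gene lists with at least 6 such genes (number in brackets); the grey bars span the 9 untreated arrays. Matrix and apoptosis genes stand to the right of the untreated range, and so do p53 targets, lipogenesis and replication genes, among other sets. Mitosis, growth hormone dependent genes and cytochromes P450 lie inside or at the edge of it.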

How the data were processed

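Total RNA of 39 rat livers was hybridised to Affymetrix rat expression arrays, and the 5 DMN, 5 DNP and 9 untreated arrays were used for values. The deposited table holds a linear intensity per probe set and array, from 5.4 to 23152.1. The submitters' processing notes name RMA and affy, without parameters; which steps gave a linear scale is not given in the sources used here. Intensities were used as the authors deposited them, in log2, with no further normalization, pseudocount or filter. Of 31099 probe sets, 20826 had 1 gene symbol, 436 several, 9780 none and 57 were controls; symbols were updated by gene identifier in 20758, and a gene was represented by its probe set with the highest mean, giving 14217 genes. limma 3.58.1 in R 4.3.3 fitted a mean per group over all 39 arrays, and p-values were adjusted by Benjamini-Hochberg over all genes, called under 0.05. The script was tested on simulated data.

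Of 27 poly-A spike probe sets, absent from liver, 26 averaged 3.49 to 4.70. Where a group mean was at or below that level, the fold is given as "at least", against that level. Precision is limited by how many arrays each group has. The labels do not say that rats of equal number were paired: same-numbered arrays correlated between -0.234 and 0.216 in their deviations, over 0.1 in 2 of 5 pairs, so the arrays were treated as unpaired. Replicates are separate rats as far as the labels tell. The p-values rest on the spread within all 7 groups of the series, not within the DMN and DNP arrays alone. Genes, lists and comparisons were chosen with earlier results of these data known. Genes named were the 10 largest differences per direction without overlap, up to 4 called members of each list, or 2 where none was called, and a few fixed or discordant members; others are marked in the text. Alternatives were other normalizations, filters, summaries and array sets, of which 2 were added after seeing the data. Promoters are from RefSeq, GRCr8. Probe sets without a gene symbol, 34 of 9780 called, were not used further.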

Additional observations from a re-analysis of the deposited data

Results flagged for a closer look

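In each of 284 groups of 5 values (the named genes in DMN and in DNP livers), the array whose distance to the nearest other exceeded 0.71 of the whole range was singled out. This happened 35 times. Chance gives about 1 in 20 only for independent groups that were not chosen by their values. The named genes were chosen in part by their values and share the same arrays. The count of 35 therefore cannot be set against that rate, and whether it exceeds chance was not tested. The values are log2 intensities, with the range of the other 4 arrays of the group in brackets.

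DMN 1 was high in Rfc3 at 8.67 (8.20 to 8.24). DMN 2 was high in Amacr at 12.25 (10.51 to 10.77), Obp3 at 11.83 (9.59 to 10.17), Pfkfb1 at 10.79 (9.08 to 9.54) and Stac3 at 9.79 (5.38 to 6.34). DMN 2 was low in Btg3 at 7.83 (9.62 to 9.99), Cdkn1a at 10.30 (11.52 to 11.95), Cryab at 7.65 (10.82 to 11.21), Gpnmb at 9.34 (11.38 to 11.89), Lama5 at 7.49 (9.07 to 9.49), Lcn2 at 8.0 (12.49 to 13.18), Lyz2 at 11.61 (12.72 to 13.12), Orm1 at 12.85 (13.67 to 13.90), Srxn1 at 8.05 (10.24 to 10.73) and Ube2c at 8.25 (10.28 to 10.57). DMN 3 was high in Casp1 at 8.66 (7.72 to 7.95) and Psmb10 at 10.11 (9.44 to 9.63). DMN 3 was low in Ndufb8 at 7.54 (10.10 to 10.72). DMN 5 was high in Akr1b8 at 8.90 (6.67 to 7.27), Ccl21 at 9.40 (7.43 to 7.93), Esrra at 8.26 (7.64 to 7.75) and Timp1 at 10.08 (8.13 to 8.57). DMN 5 was low in Akr7a3 at 10.25 (11.38 to 11.76), Fas at 7.26 (8.41 to 8.82), Igfals at 7.36 (9.89 to 10.63), Rpa2 at 7.64 (8.03 to 8.16), Slco1b2 at 9.78 (10.95 to 11.31) and Slco2b1 at 7.95 (9.21 to 9.45). DNP 1 was high in Pcna at 10.20 (9.65 to 9.80). DNP 1 was low in Cyp2e1 at 12.99 (13.41 to 13.52), Ndufb8 at 5.61 (9.87 to 10.51) and Orm1 at 12.15 (12.89 to 13.02). DNP 2 was high in Ddit4 at 7.39 (6.04 to 6.24). DNP 3 was high in Lcn2 at 8.88 (6.39 to 7.04). DNP 5 was low in Gstm7 at 10.53 (11.11 to 11.29). DMN 2 accounts for 14 and DMN 5 for 10 of these values. No cause was tested.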

How the results depend on the processing

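The calls between DMN and DNP livers depended most on which arrays entered the fit. Leaving out 1 array at a time gave 636 to 1390 genes called, 342 to 754 higher and 270 to 636 lower, 317 to 581 at least 2-fold, and 1007 to 1817 between DMN and untreated livers, with 0 between DNP and untreated livers. The lowest count was without DMN 3 and the highest without DMN 2. Without DMN 2 and 1 array each of 2 other compounds (ANIT 3 and Roziglitazone 2, whose values were not examined here), 1578 genes were called, 840 higher and 738 lower, and 604 at least 2-fold. The 10 arrays alone gave 266, 183 higher and 83 lower, with 215 at least 2-fold, and 638, 385 higher and 253 lower, without DMN 2. Array weights gave 2622, 1179 higher and 1443 lower, and 3468 between DMN and untreated livers. A covariate for the GAPDH 5′ to 3′ ratio gave 1313, 650 higher and 663 lower. Without DMN 3 and DNP 1 there were 533, 348 higher and 185 lower, and 1440, 859 higher and 581 lower, with arrays centred on their median and DMN 2 left out, both chosen after seeing the data. The replicate block gave 1065, 558 higher and 507 lower, and ended 8 calls of named genes. Quantile normalization, an offset of 32, the mean of probe sets, the dimmest 30% left out and the trended robust fit stayed within 1.5 times the count, at 1169, 1088, 913, 987 and 1009. The mean of probe sets nonetheless ended 14 calls of named genes, not all of which are marked above. The cause of these shifts was not tested. No gene called both as reported and under an alternative changed sign. Among named genes, only differences that were not called changed sign: Alb was at 0.0131 with arrays centred and 0.0108 with the mean of probe sets, and Ndufb8 ran from -0.33 to 1.16 over the fits without 1 array and was at -0.16 with array weights.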
